A study of Solanum lycopersicum with 17 samples.

Results

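The set described here holds 107 tomato genes that were highest at stage 1 in floral buds of the male-fertile line and that gave few or no reads in the male-sterile line. They were chosen by their measured levels, from 34727 gene models, with a rule on mean CPM, a gene's share of the reads assigned to genes in its library, given per 1000000 reads. The highest fertile mean had to be the stage 1 mean and had to reach 15 CPM, and each of the 3 sterile means had to be at most 1/8 of it. A block of genes on chromosome 2 around the male-sterility locus Ms10 and 8 single anther genes were left out by identifier, which removed 10 of the 117 genes that met the numbers. The same rule with the fertile peak at stage 2 gave 103 genes, and with the peak at stage 3 it gave 42. Because these values chose the genes, the absence in sterile buds and the fertile peak at stage 1 are descriptions and not findings.

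RNA was sequenced from floral buds of the male-sterile line ms1035 and the male-fertile line T-1082, each at 3 numbered developmental stages that the labels do not define. The sterile line had 3 replicate libraries per stage, and the fertile line had 3 at stages 2 and 3 and 2 at stage 1, which are numbered 2 and 3. The library numbered 1 at that stage is not analysed here. The labels give no agent, transgene, age or further allele for either line, and they do not say how many plants or buds went into a library. Libraries held 499608 to 817548 assigned reads.

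In flowering plants the tapetum is the innermost layer of the anther wall; it feeds the developing microspores, supplies material for the pollen coat and wall, and then breaks down. A chain of bHLH and MYB transcription factors and a PHD-type factor turns on its genes in sequence, and loss of an early factor leaves anthers without functional pollen. The ms1035 line is known from the tomato literature as a mutant of Ms10, a bHLH gene at the start of that chain.

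The deposited tables list the genes by Solyc identifier, whose first 2 digits are the chromosome, and pair none of the 107 with a gene name. They also carry no coordinates. The 107 genes are therefore given by identifier, with no role. Chromosome 1 held 22 of them, 20.6% of the set against 13.1% of all 13568 genes that passed the filter on low counts, chromosome 3 held 15 (14.02% against 10.7%) and chromosome 7 held 12 (11.2% against 7.47%). Of the 107, 100 passed that filter. The other 7 were Solyc10g084170, Solyc03g031610, Solyc01g087280, Solyc10g074490, Solyc06g062920, Solyc06g072330 and Solyc05g025780, and they have values but no test. The coding length in the tables had a median of 910.5 bases over the 100 tested genes and of 1245 bases over all tested genes.

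Ms10 itself, Solyc02g079810, had 37.3 and 28.5 CPM in the 2 fertile stage 1 libraries and 0 in the 3 sterile stage 1 libraries. At stage 2 it had 0, 0 and 2.87 CPM in the fertile line and 0, 2.65 and 0 CPM in the sterile line. At stage 3 it had 0 in both lines. Summed over 6 floral organ identity genes, the level was 841 to 2155 CPM in the fertile libraries and 697 to 1281 CPM in the sterile ones, so markers of the labelled tissue were present in every library. A pollen-expressed gene of the LAT52 type, a marker of late pollen, stayed at 0 to 22 CPM in the fertile libraries and 0 to 1.62 CPM in the sterile ones. These names are recalled from the tomato literature and are not in the tables.

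The fertile libraries numbered 2 gave the lowest sums of their stage for this set at stages 1 and 2. At stage 1, with 2 libraries, it cannot be told which of them stands apart. Summed over the 107 genes, fertile stage 1 gave 10532 CPM in replicate 2 and 28561 CPM in replicate 3. At stage 2 the sum was 13572, 4912 and 18989 CPM in replicates 1, 2 and 3, and at stage 3 it was 1633, 1463 and 1274 CPM. The sum in replicate 2 was therefore below its partners at stages 1 and 2, while at stage 3 it lay between them. At fertile stage 2 replicate 2 was the lowest library in 73 of the 107 genes, and also in 52 of the 103 genes that the same rule gives with the fertile peak at stage 2. The 9 sterile libraries gave sums of 157 to 307 CPM, below every fertile library. In whole buds, fewer cells of a type and less RNA per cell cannot be told apart. The part of any batch in the difference between libraries was not tested, since the labels give none.

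**Figure D1:**
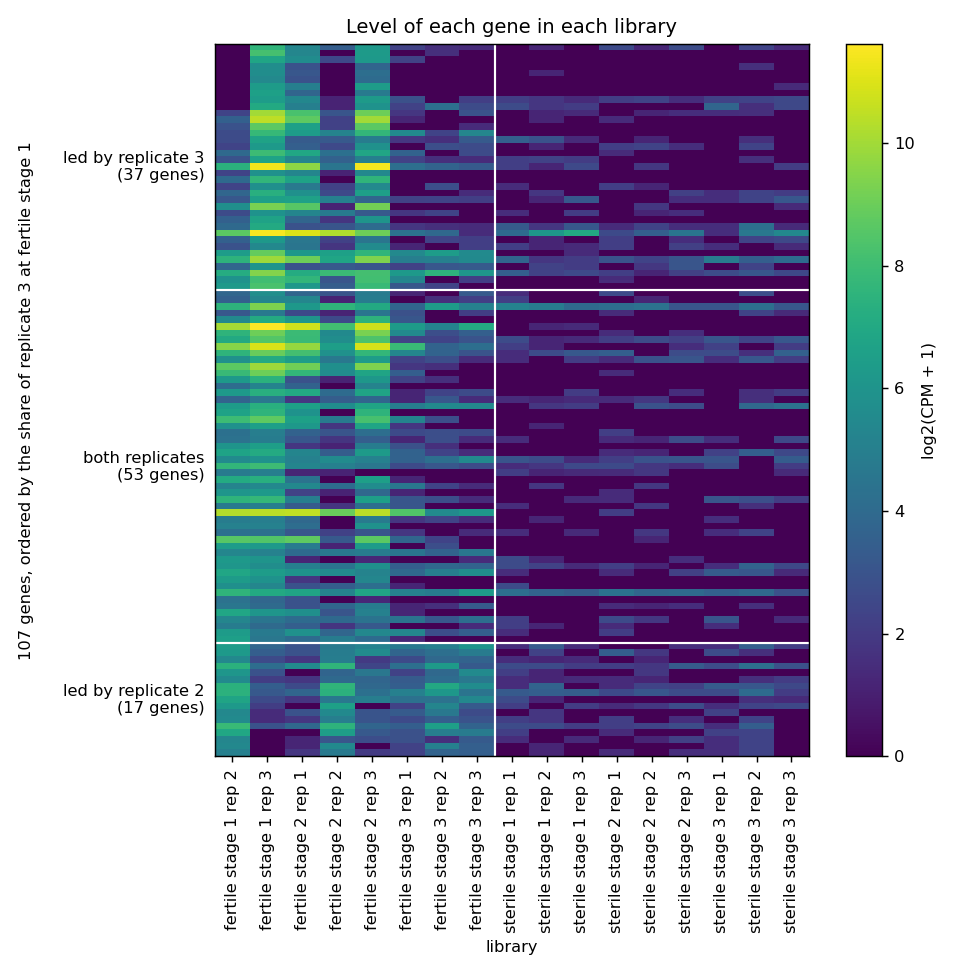
Level of each of the 107 genes (rows) in each of the 17 libraries (columns, by line, stage and replicate), as log2(CPM + 1). The fertile libraries of stages 1 and 2 are the brightest, replicate 2 of fertile stage 2 is darker than its partners in most rows, and the 9 sterile columns are dark, at or near 0 in most rows.

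The levels at the peak covered a wide range. The mean CPM at fertile stage 1 ran from 16 to 2087 with a median of 60.7; 9 genes reached 500 CPM, 37 reached 100 CPM and 43 lay under 50 CPM. Per length, which allows levels of different genes to be set side by side, the RPKM mean at fertile stage 1 ran from 7.02 to 4160 with a median of 75.2. The genes nearest the level limit were Solyc01g079660 at 16 CPM and Solyc09g005840 at 16.6 CPM inside it, and Solyc02g083000 at 14.9 CPM and Solyc10g050970 at 14 CPM outside it. Solyc01g079660 was also nearest the sterile limit, with its highest sterile mean at 12.1% of the peak, followed by Solyc03g113930 at 11.7%; Solyc04g007580 at 13.1% and Solyc08g006470 at 13.5% just missed it. On the peak stage, Solyc01g097660 and Solyc11g005750 were inside with 98.9% and 98.5% of the stage 1 mean at the next highest stage, and Solyc04g008780 and Solyc08g060930 were outside with 102% and 105%.

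Of the 8 highest genes by CPM, 4 were high in both fertile stage 1 libraries, with neither library holding more than 80% of their summed stage 1 CPM. Solyc03g051960 had the highest mean, with 1049 and 3125 CPM at fertile stage 1, then 1746, 275 and 1686 CPM at stage 2 and 80.6, 34.0 and 137 CPM at stage 3. In the sterile line it gave 2 reads in all, 1 each in stage 1 replicates 2 and 3. Replicate 2 was the lowest library at every fertile stage for this gene.

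Solyc07g015960 was the most even of the 8. It had 1224 and 1355 CPM at fertile stage 1, 1465, 495 and 1365 CPM at stage 2 and 348, 46.0 and 69.3 CPM at stage 3, and its only sterile signal was 3.39 CPM in stage 2 replicate 1. Solyc05g050700 had 715 and 1979 CPM at fertile stage 1, 872, 90.5 and 1912 CPM at stage 2 and 235, 12.0 and 17.3 CPM at stage 3. Solyc01g010900 had 411 and 955 CPM, then 538, 53.8 and 652 CPM, then 2.56, 2.00 and 0 CPM, with 0 reads in all 9 sterile libraries. In all 3 genes replicate 2 was the lowest stage 2 library.

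The remaining 4 high genes, Solyc02g084850 (described further on) among them, leaned on replicate 3 of fertile stage 1. Solyc02g032910 had 169 and 2612 CPM there, 806, 22 and 2793 CPM at fertile stage 2, and 17.9, 12.0 and 8.66 CPM at fertile stage 3. Solyc01g090600 was the most uneven, with 10.7 and 1415 CPM at fertile stage 1, 423, 3.67 and 1034 CPM at stage 2 and 1.28, 0 and 0 CPM at stage 3. Solyc02g068400 had 180 and 955 CPM at fertile stage 1, 520, 111 and 659 CPM at stage 2 and 30.7, 32.0 and 45.0 CPM at stage 3, and its sterile libraries held 2.62 to 27.5 CPM. Its fertile stage 3 libraries all lay above its sterile stage 3 libraries, by a narrow margin.

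The set fell into 3 patterns by how the 2 fertile stage 1 libraries shared each gene's CPM. In 53 genes, led by neither library, both held more than 20% and less than 80% of the summed stage 1 CPM, in 37 genes replicate 3 held at least 80%, and in 17 genes replicate 2 did. Among all 13568 tested genes 95.2% were of the first kind, 1.64% were led by replicate 3 and 2.62% by replicate 2. These limits were set after the values were seen, and the patterns carry no test. In 14 of the 107 genes 1 of the 2 stage 1 libraries held no read at all.

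**Figure D2:**
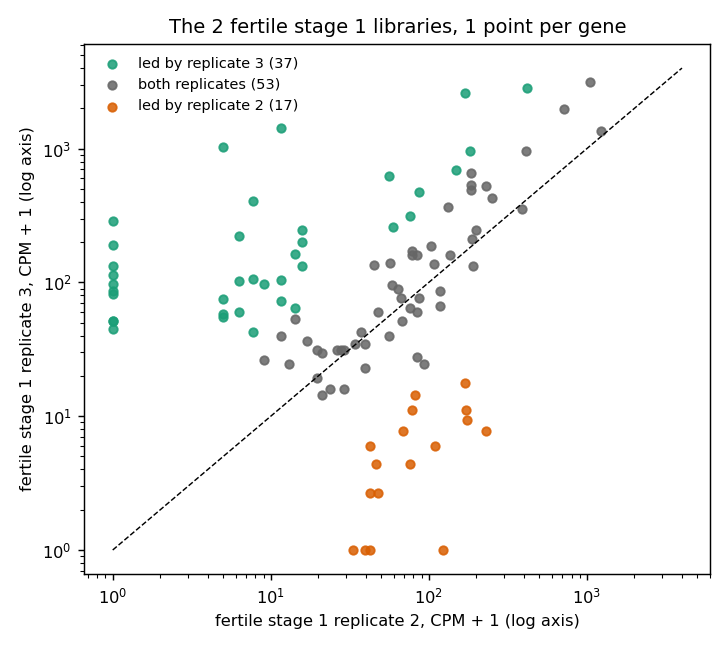
Level of the 107 genes in replicate 2 (x axis) and replicate 3 (y axis) of fertile stage 1, both as CPM + 1 on log axes, with the line of equal levels. The 37 genes led by replicate 3 and the 17 led by replicate 2 lie away from the 53 along the line.

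In the later libraries the genes led by replicate 2 stood apart from the rest of the set, more at stage 2 than at stage 3. At fertile stage 2 replicate 2 was the lowest of the 3 libraries in 43 of the 53 genes led by neither library, in 30 of the 37 led by replicate 3 and in 0 of the 17 led by replicate 2. It was the highest in 3, 1 and 13 of them. Among all tested genes replicate 2 was lowest in 27.7% and highest in 37.2% at that stage. The same lean was present outside the set: of 189 tested genes led by replicate 3 that are not in it, 48.1% were lowest in replicate 2 at stage 2, and of 339 led by replicate 2, 59.0% were highest there. At fertile stage 3 replicate 2 was the highest library in 10, 9 and 11 of the 3 groups, against 35.1% of all tested genes. It was the lowest there in 11, 7 and 1 of them, against 33.6% of all tested genes.

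Median levels show how far the 3 patterns differ. In the 17 genes led by replicate 2 the median was 74.7 and 5.04 CPM at fertile stage 1, 2.59, 30.6 and 8.61 CPM at stage 2 and 8.95, 24.0 and 12.1 CPM at stage 3. In the 53 genes led by neither library it was 74.7 and 75.5 CPM, then 31.1, 9.79 and 41.6 CPM, then 3.84, 4.0 and 1.73 CPM. In the 37 genes led by replicate 3 it was 6.67 and 131 CPM, then 38.9, 4.89 and 76.1 CPM, then 2.56, 2.00 and 1.73 CPM. The median of the genes led by replicate 2 was thus highest in the replicate 2 library at each stage, although single genes among them differed. The medians of the other 2 patterns were lowest in replicate 2 at stage 2 and low in all 3 libraries at stage 3.

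**Figure D3:**
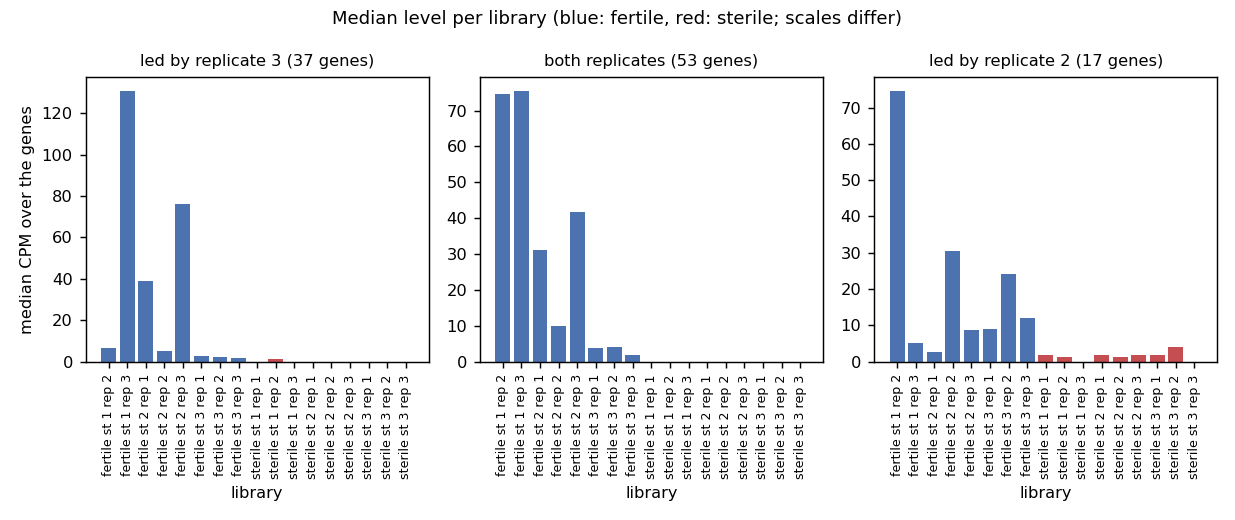
Median CPM of the 3 patterns in each fertile and sterile library, with a panel for each pattern. The axes are linear and their scales differ between panels. In replicate 2 of fertile stage 2 the 17 genes led by replicate 2 have a median of 30.6 CPM, where the 53 genes led by neither library have 9.79 CPM and the 37 led by replicate 3 have 4.89 CPM.

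Among genes with at least 50 reads in the 2 fertile stage 1 libraries, Solyc07g056300, Solyc07g053330 and Solyc10g086390 were the most one-sided towards replicate 3. Solyc07g056300 had 0 and 287 CPM at fertile stage 1, 38.9, 0 and 80.4 CPM at stage 2 and 0, 2.00 and 0 CPM at stage 3. Solyc07g053330 had 0 and 190 CPM, then 38.9, 9.79 and 71.8 CPM, then 3.84, 2.00 and 1.73 CPM. Solyc10g086390 had 0 and 112 CPM, then 49.3, 4.89 and 76.1 CPM, then 3.84, 0 and 0 CPM. All 3 were seen in stage 2 replicates 1 and 3, so their signal did not rest on a single library.

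The most one-sided genes towards replicate 2 were Solyc02g094000, Solyc01g095140 and Solyc08g007820. Solyc02g094000 had 121 and 0 CPM at fertile stage 1, 0, 86.8 and 8.61 CPM at stage 2 and 6.39, 30.02 and 27.7 CPM at stage 3. Solyc01g095140 had 228 and 6.71 CPM, then 14.3, 181 and 12.9 CPM, then 10.2, 92.1 and 12.1 CPM. Solyc08g007820 had 74.7 and 3.36 CPM, then 0, 96.6 and 0 CPM, then 3.84, 38.0 and 8.66 CPM. In each of them replicate 2 was the highest fertile library of its stage at all 3 stages.

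The order of fertile stages 2 and 3 was not set by the rule, which only held both below stage 1. The stage 3 mean was below the stage 2 mean in 101 of the 107 genes, against 55.7% of all tested genes with a lower stage 3 mean. The stage 3 mean was a median of 9.44% of the stage 2 mean in the set (13.9% with the 15 genes at 0 reads set to their limit of 1.61 CPM) and 95.8% over all tested genes. As a share of the stage 1 mean, a median of 55.5% was left at stage 2, with a range of 1.32% to 98.9%, and 6.01% at stage 3, with a range of 0 to 80.9%. The median at stage 3 was 15.03% without fertile stage 1 replicate 3, 3.73% without fertile stage 1 replicate 2, and 3.49% without all fertile libraries numbered 2.

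In the test of fertile stage 3 against stage 2, edgeR called 10 of the 100 tested genes lower and none higher at an adjusted p under 0.05, against 0.162% of all 13568 tested genes called lower. At an unadjusted p under 0.05 it had 62 of the 100 lower, against 4.22% of all tested genes. Same-numbered fertile libraries of these stages deviated together, so the numbers were taken to pair them, which the labels do not state. A block for the replicate number, shared by the fertile and the sterile libraries, was also fitted. With it 34 genes of the set were called lower, against 0.545% of all tested genes. The 10 genes called without the block were all among them. Values of single genes given below come from the fit without the block, which leaves the pairing out. The 3 stage 3 libraries all lay below the 3 stage 2 libraries in 35 of the 100, against 7.53% of all tested genes. With 1 library of these stages left out, the share of all tested genes called lower ran from 0 to 0.424%. The count of 10 depended on single libraries: it was 27 without fertile stage 2 replicate 2, 1 without stage 2 replicate 1, 3 without stage 2 replicate 3, 8 without stage 3 replicate 1 and 0 without stage 3 replicate 2 or replicate 3. Without all 3 fertile libraries numbered 2 it was 33. With only the libraries of these 2 fertile stages in the fit, 42 genes of the set passed the filter and 5 of them were called lower, against 0.0869% of all genes then tested. In the full fit a gene could pass the filter on its 2 fertile stage 1 libraries alone, which the rule made high. The counts out of 100 carry that limit. The shares over all tested genes come mostly from genes not chosen for a stage 1 peak.

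**Figure D4:**
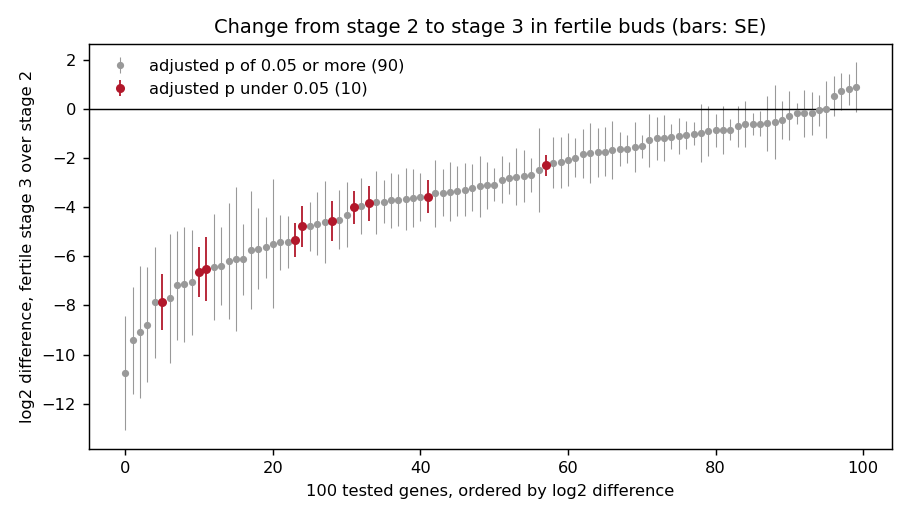
Log2 difference of fertile stage 3 over stage 2 for the 100 tested genes in ascending order, from edgeR, with bars of 1 SE. The 10 genes with an adjusted p under 0.05 are in red and all lie below 0; for genes with few or no stage 3 reads the fitted value depends on the prior count.

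The smallest adjusted p belonged to Solyc08g076790. It had 230, 51.4 and 333 CPM at fertile stage 2 and 3.84, 4.0 and 6.93 CPM at stage 3, after 132 and 368 CPM at stage 1. The groups did not overlap, and the log2 difference of stage 3 over stage 2 was -5.33 ± 0.69 (SE) with an edgeR adjusted p of 0.00745. The call was kept in 11 of 13 alternatives, with adjusted p from 1.74e-08 to 0.100, and was lost without fertile stage 3 replicate 2 (adjusted p 0.0607) or replicate 3 (0.100), where the log2 difference was -5.23 and -5.65.

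Solyc02g084850, the gene with the next smallest adjusted p, went from 2029, 1210 and 534 CPM at fertile stage 2 to 19.2, 14 and 1.73 CPM at stage 3. Its log2 difference was -6.65 ± 1.01 (SE), with an edgeR adjusted p of 0.0198, and the call was kept in 10 of 13 alternatives with adjusted p up to 0.1999. It was lost without fertile stage 2 replicate 1 (0.0558), stage 3 replicate 2 (0.144) or stage 3 replicate 3 (0.1999), with log2 differences of -6.12, -6.74 and -6.17. Here replicate 3, not replicate 2, was the lowest library at stage 2.

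Solyc05g009230 was a gene of lower level that showed the same course. It had 86.9, 24.5 and 83.3 CPM at fertile stage 2 and 3.84, 6.0 and 1.73 CPM at stage 3, a log2 difference of -4.01 ± 0.67 (SE) with an edgeR adjusted p of 0.0341. Its call was kept in 9 of 13 alternatives, and the losses were without fertile stage 2 replicate 1 (adjusted p 0.0696) or replicate 3 (0.0593) and without stage 3 replicate 2 (0.144) or replicate 3 (0.204), with log2 differences between -4.36 and -3.71.

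Solyc01g010900 had only 3 reads over the fertile stage 3 libraries against 913 at stage 2. The ratio of stage 2 to stage 3 in reads per assigned read was 248, with an exact 95% binomial interval of 84.5 to 1203 that covers counting error only. Its edgeR adjusted p was 0.0341, kept in 9 of 13 alternatives. The call was lost without fertile stage 2 replicate 1 (0.0696) or replicate 3 (0.0517) and without stage 3 replicate 2 (0.194) or replicate 3 (0.204). In these fits the log2 difference lay between -7.97 and -7.32, against -7.85 with all libraries, and it rests on few stage 3 reads.

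The other 6 called genes were Solyc07g062220, Solyc03g121100, Solyc02g068400, Solyc10g006940, Solyc02g032910 and Solyc03g051960. Their edgeR adjusted p lay between 0.0341 and 0.0463, each kept its call in 7 of 13 alternatives, and the highest adjusted p was 0.340. Where a call was lost, the log2 difference was 75.3% to 114% of that with all libraries, with a median of 98.3%. The smallest difference was that of Solyc03g121100, with 37.6, 31.8 and 23.0 CPM at fertile stage 2 and 5.12, 8.01 and 5.19 CPM at stage 3, a log2 difference of -2.30 ± 0.42 (SE). Of the 10 called genes 7 were led by neither library at stage 1, 3 were led by replicate 3 and 0 were led by replicate 2.

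A further group gave no read at the last stage. In 15 genes the 3 fertile stage 3 libraries held 0 reads, which allows a level of up to 1.61 CPM (3 reads over the 3 libraries). Solyc03g111860 was the highest of them, with 54.7 and 623 CPM at fertile stage 1 and 389, 1.22 and 557 CPM at stage 2. Solyc04g078100 had 103 and 185 CPM at stage 1 and 59.7, 0 and 185 CPM at stage 2, and Solyc07g065780 had 14.7 and 198 CPM and then 104, 0 and 192 CPM. Solyc08g077860 had 82.7 and 58.7 CPM at stage 1 and 2.59, 0 and 38.8 CPM at stage 2. All 4 were at or near 0 in replicate 2 already at stage 2.

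At the other end, 6 genes had a higher mean at fertile stage 3 than at stage 2, and all 6 were led by replicate 2 at stage 1. Solyc12g017240 kept the largest share of its stage 1 mean, with 81.3 and 13.4 CPM at fertile stage 1, 6.49, 26.9 and 34.5 CPM at stage 2 and 24.3, 30.02 and 60.6 CPM at stage 3. Solyc03g124110 had 41.3 and 0 CPM, then 1.30, 44.0 and 0 CPM, then 3.84, 32.0 and 10.4 CPM. Solyc06g075780 had 45.3 and 3.36 CPM, then 2.59, 14.7 and 12.9 CPM, then 8.95, 16 and 24.2 CPM. The other 3 were Solyc03g093120, Solyc03g093130 and Solyc06g062920, and the libraries of the 2 stages overlapped in the 3 genes whose values are given. Solyc02g087210 kept a large share at both later stages, with 172 and 10.1 CPM at stage 1, 5.19, 192 and 14.4 CPM at stage 2 and 10.2, 128 and 48.5 CPM at stage 3; each stage rested mostly on replicate 2.

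**Figure D5:**
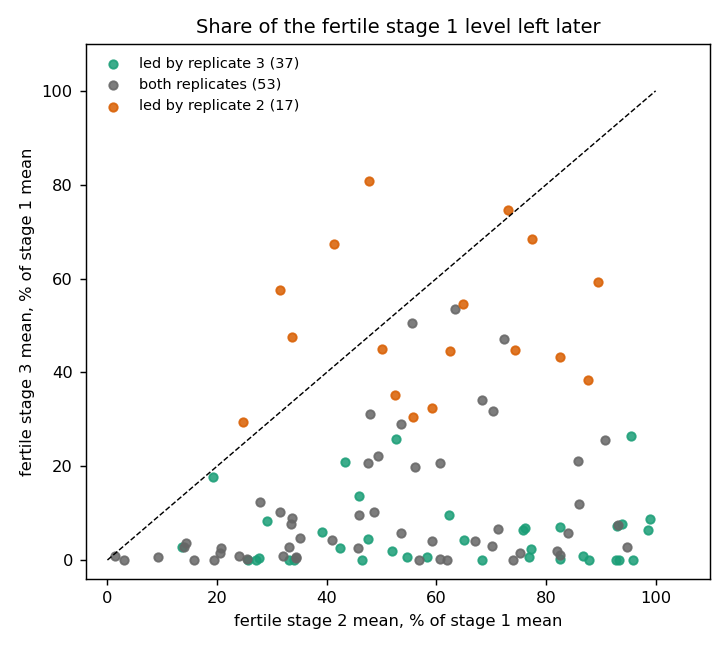
Mean level at fertile stage 2 (x axis) and fertile stage 3 (y axis), each as a percentage of the fertile stage 1 mean, for the 107 genes, with the line of equal shares. The 6 genes above the line are all led by replicate 2, whose 17 genes have a median of 44.9% left at stage 3, where the genes led by neither library have 4.01% and those led by replicate 3 have 2.66%.

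The step from fertile stage 1 to stage 2 was used by the rule and is given as a description. Of the 107 genes, 46 kept under 50% of their stage 1 mean at stage 2, 3 kept under 10% and 23 kept over 80%. EdgeR called 2 of the 100 tested genes lower at stage 2, against 0.059% of all tested genes. The count was 0 without fertile stage 1 replicate 3 and 5 without fertile stage 2 replicate 3. Solyc03g119620 had 74.7 and 63.8 CPM at fertile stage 1, 1.30, 0 and 1.44 CPM at stage 2 and 0, 0 and 1.73 CPM at stage 3. Solyc03g121100 had 197 and 245 CPM at stage 1 before the stage 2 and stage 3 values given above. Every stage 2 library lay below both stage 1 libraries in 22 of the 100, against 17.3% of all tested genes, and every stage 3 library did in 69, against 23.8%.

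The rule capped the sterile means but did not ask for a sterile level of 0. Over the 9 sterile libraries 25 genes had 0 reads, 20 had 1 to 3 reads and 14 had more than 20, with a median of 5 reads and a maximum of 205. No library of the sterile line went above 10 CPM in 92 of the 107 genes. A count of 0 over the 9 libraries allows a level of up to 0.543 CPM (3 reads). Against that limit the fertile stage 1 mean of the 25 genes was at least 30.8-fold higher (Solyc05g025780) to at least 1257-fold higher (Solyc01g010900) than the sterile level. Of the 25, 15 were led by neither library at fertile stage 1, 10 were led by replicate 3 and 0 were led by replicate 2.

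Solyc02g084850 was the one gene above 50 CPM in a sterile library. Its sterile libraries gave 15.7, 69.5 and 131 CPM at stage 1, 5.09, 10.6 and 21.9 CPM at stage 2 and 1.83, 23.9 and 41.3 CPM at stage 3, in replicates 1, 2 and 3. Its fertile stage 1 libraries had 415 and 2855 CPM, so the lines did not overlap at stage 1. At fertile stage 3, with 19.2, 14 and 1.73 CPM, they did.

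Relative to its own peak, the sterile level was highest in Solyc07g065410, Solyc06g007190, Solyc12g006380 and Solyc06g062920. Solyc12g006380 had 191 and 133 CPM at fertile stage 1 and 33.2, 28.0 and 79.6 CPM at fertile stage 3, and its 9 sterile libraries lay between 6.36 and 20.4 CPM. Solyc06g007190 had 175 and 8.39 CPM at fertile stage 1, 13, 172 and 18.7 CPM at stage 2 and 32.0, 70.1 and 20.8 CPM at stage 3, with 3.18 to 15.9 CPM in the sterile libraries. Solyc07g065410 had 46.7 and 58.7 CPM at fertile stage 1 and 0 to 9.54 CPM in the sterile libraries, and Solyc06g062920 had 38.7 and 0 CPM with 0 to 3.98 CPM. For Solyc06g007190 and Solyc06g062920, replicate 3 of fertile stage 1 was within the sterile range.

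The test of sterile stage 3 against stage 1 can say little of this set, because its genes passed the filter on low counts through their fertile reads: with only the libraries of these sterile stages, 2 of the 107 passed it. EdgeR called 0 of the 100, and 3 had an unadjusted p under 0.05. The shares over all tested genes were 2.06% and 16.9%, and nothing is read from the difference. DESeq2 called 1, Solyc12g005560, higher at stage 3 with an adjusted p of 0.0471, where edgeR gave 0.150 and the 11 alternatives ranged from 0.0471 to 0.389. It had 0, 0 and 0 CPM at sterile stage 1, 1.70, 1.32 and 0 CPM at stage 2 and 3.67, 9.95 and 4.77 CPM at stage 3, next to 107 and 136 CPM at fertile stage 1. Its sterile stage 3 libraries lay all above its sterile stage 1 libraries, and near those of fertile stage 3 at 11.5, 4.0 and 1.73 CPM.

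Line differences within a stage were what the rule used. At stage 1 edgeR called 56 of the 100 tested genes lower in sterile buds, against 1.09% of all tested genes, and at stage 2 it called 45, against 2.23%. At stage 3 it called 5, against 0.568%. The sterile libraries lay all below the fertile ones in 81 of the 100 at stage 1, 71 at stage 2 and 31 at stage 3, against 12.4%, 8.65% and 7.65% of all tested genes. The counts moved with single libraries. At stage 1 they were 32, 26 and 28 without sterile replicates 1, 2 and 3, against 0.534%, 0.351% and 0.401% of all tested genes. At stage 2 they were 26 and 22 without sterile replicates 1 and 2, against 1.07% and 0.834%. At stage 3 the count was 0 without sterile replicate 2, 3 without sterile replicate 3 and 2 without fertile replicate 3. The shares over all tested genes there were 0.074%, 0.156% and 0.171%. Nothing is read from these counts.

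Of the 107 genes, 17 lay in 7 runs of neighbouring members no more than 5 gene models apart. The longest was Solyc01g099540, Solyc01g099570, Solyc01g099580 and Solyc01g099620. Solyc01g099540 had 6.67 and 405 CPM at fertile stage 1 and 97.3, 3.67 and 408 CPM at stage 2, and Solyc01g099570 had 14.7 and 247 CPM and then 121, 18.3 and 116 CPM. Solyc01g099580 had 6.67 and 106 CPM at stage 1, so the first 3 genes were led by replicate 3, while Solyc01g099620 had 38.7 and 21.8 CPM and was led by neither library.

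Solyc03g093080, Solyc03g093120 and Solyc03g093130 formed another run, with coding lengths of 861, 861 and 864 bases, and all were led by replicate 2. They had 77.3 and 10.1 CPM, 108 and 5.04 CPM, and 68.0 and 6.71 CPM at fertile stage 1, and 12.8, 18.0 and 27.7 CPM, 19.2, 20.02 and 41.6 CPM, and 3.84, 14 and 46.7 CPM at stage 3. Their levels are uncertain, because in Solyc03g093120 and Solyc03g093130 83.5% and 87.8% of the reads were assigned uniquely, where the median over the set was 100%. The only other gene under 90% was Solyc06g062540 at 78.1%.

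Solyc11g028040 and Solyc11g028070, both with a coding length of 318 bases, had 251 and 426 CPM and 77.3 and 171 CPM at fertile stage 1. They went to 94.7, 25.7 and 296 CPM and 6.49, 1.22 and 68.9 CPM at stage 2. Neither had a read in a sterile library. The other runs were pairs: Solyc01g081250 and Solyc01g081270, Solyc03g116890 and Solyc03g116930, Solyc07g056300 and Solyc07g056320, and Solyc07g065770 and Solyc07g065780.

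A list of 10 tapetum and anther genes known from the literature was set beside the 107, and it was chosen with earlier results of these data known. Among the regulators, the bHLH gene AMS had 516 and 416 CPM at fertile stage 1 and the bHLH gene Ms32 had 120 and 123 CPM, both led by neither library. The MYB gene TDF1 had 26.7 and 65.5 CPM, the MYB gene MYB80 6.67 and 35.2 CPM, and the PHD-type gene MS1 9.33 and 97.4 CPM. MYB80 and MS1 thus met the limit of 80% for genes led by replicate 3, and the other regulators did not. Over the 9 sterile libraries AMS gave 2 reads, TDF1 gave 1, and MYB80 and MS1 gave 0, while Ms32 gave 42. Ms32 had 33.2, 7.86 and 0 CPM at sterile stage 1. The fertile mean of MYB80 was higher at stage 2, at 29.7 CPM, than at stage 1, at 21.0 CPM.

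Among the products, STR1 had 223 and 1252 CPM at fertile stage 1, the tapetal protein gene TomA108 had 407 and 1170 CPM, and the aspartic proteinase gene Solyc06g069220 had 536 and 1803 CPM; of these STR1 also met that limit. The cysteine protease gene Solyc07g053460 had 26.7 and 0 CPM at stage 1, so it was led by replicate 2 there. It had 1822, 1936 and 9231 CPM at stage 2, a later peak than the set. In the sterile line STR1 gave 2 reads, TomA108 gave 1, the aspartic proteinase gene 16 and the cysteine protease gene 4. Of the 10 genes, 2 were called lower at fertile stage 3 than at stage 2 and none higher, against 0.162% of all tested genes called lower. How these 2 calls fare in the alternatives is not given here. TomA108 went from 695, 89.3 and 952 CPM to 42.2, 6.0 and 17.3 CPM, a log2 difference of -4.63 ± 0.84 (SE) with an edgeR adjusted p of 0.0463. The aspartic proteinase gene went from 1936, 7.34 and 1526 CPM to 16.6, 2.00 and 8.66 CPM, a log2 difference of -6.85 ± 1.28 (SE) with an edgeR adjusted p of 0.0385. Both were lowest in replicate 2 at stage 2, as were 73 of the 107 genes.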

How the data were processed

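Floral buds of 2 tomato lines at 3 stages gave 17 RNA-seq libraries. The deposited tables hold, per the file headers, whole-number counts of the reads on each gene, in total and for reads placed uniquely (98.7% to 99.5% of the total), and the authors' RPKM. The deposited gene length, another kind of value, is in bases and is a multiple of 3 in 34726 of 34727 gene models, as coding lengths are. Aligner, counter and strand setting: not given in the sources used here. Columns of other samples numbered 0.

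The total count was modelled in R 4.3.3 by edgeR 4.0.16 (filterByExpr, TMM, quasi-likelihood F-test, 1 fit over 6 groups, 11 residual degrees of freedom, Benjamini-Hochberg adjustment over 13568 genes, threshold 0.05). The procedure was tested on simulated data in which all genes shared the same dispersion. That test does not cover genes whose replicates differ as widely as many of this set. TMM factors lay between 0.901 and 1.09. SE is the log2 value over the square root of F. The series calls the replicates biological; a p-value reflects the spread among them alone. A count of 0 was treated as at most 3 reads over the group; such limits cover counting error only.

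Deviations from the group means of same-numbered fertile libraries of stages 2 and 3 correlated at 0.190, 0.277 and 0.317, all over 0.1, so the numbers were taken to pair these libraries. The replicate block gave each number an effect shared by all 17 libraries of both lines, so it is not a pairing of the fertile libraries alone. Alternatives were DESeq2 1.42.0, no filter, unique counts, other limits in the rule, only the groups compared, the replicate block, leaving out each library, and leaving out the fertile libraries numbered 2, which was chosen after seeing the data. The genes named are the 8 highest at fertile stage 1, the 4 highest and 4 lowest shares left at stage 3, the 4 highest relative sterile levels, the 3 most one-sided genes each way at stage 1, the 4 smallest adjusted p, and the genes nearest each limit. Others (the runs of neighbours, Solyc03g119620, Solyc12g005560, Solyc03g121100) were chosen after their values were seen. The members and gene lists were chosen with earlier results of these data known.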

Additional observations from a re-analysis of the deposited data

How the results depend on the processing

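Depth limits the set: most sterile values are a few reads, and fertile stage 1 has 2 libraries. The rule gave 107 genes; with 1/4 in place of 1/8 it gave 174, with the other limits and scalings tried 73 to 117, and 123 without the fertile libraries numbered 2 (82 shared). Leaving out 1 library gave 88 to 130 genes; 130 met it without fertile stage 1 replicate 2 (86 shared) and 99 without replicate 3 (54 shared). The median share left at stage 2 lay between 35.7% and 70.3%, and at stage 3 between 3.73% and 15.03%, with 1 library left out, and at 3.49% at stage 3 without those numbered 2.

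For fertile stage 3 against stage 2 (10 of 100 called lower), there were 52 of 107 with no filter, 34 of 100 with the replicate block, 5 of 42 with only the groups compared, since fewer genes then passed the filter, 33 without the libraries numbered 2 and 0 to 27 with 1 library left out. For fertile stage 2 against stage 1 (2), there were 1 by DESeq2, 7 with no filter, 5 with the replicate block, 1 without the libraries numbered 2 and 0 to 5 with 1 library left out. For sterile stage 3 against stage 1 (0), DESeq2 called 1, leaving out 1 library gave 0 throughout, and 2 genes of the set passed the filter on these libraries alone. The shares of all tested genes called lower moved as well. For fertile stage 3 against stage 2 the share was 0.162%, 0.571% with no filter, 0.545% with the block and 0.0869% with only the groups compared. For fertile stage 2 against stage 1 it was 0.059%, 0.0663% by DESeq2, 0.145% with no filter and 0.118% with the block.

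Line differences, at stage 1 (56 lower): 105 with no filter, 80 with the replicate block, 26 to 58 with 1 library left out. At stage 2 (45): 85 with no filter, 73 with the replicate block, 28 with only the groups compared (of 29 that passed the filter), 22 to 53 with 1 library left out. At stage 3 (5): 11 by DESeq2, 16 with no filter, 12 with the replicate block, 9 without the libraries numbered 2, 0 to 6 with 1 library left out. Where leaving out a library left fertile stage 1 with 1 library, that library was assumed to vary like the other groups. The share of all tested genes called lower in sterile buds moved too. At stage 1 it was 1.09%, 1.7% with no filter and 1.95% with the replicate block. At stage 2 it was 2.23%, 2.87% with no filter, 3.87% with the block and 1.76% with only the groups compared. At stage 3 it was 0.568%, 1.03% by DESeq2, 1.04% with no filter and 1.23% with the block. The cause of these differences was not tested, and the fit without a filter also tests more genes. Same-numbered libraries of fertile stages 1 and 2 also correlated, at 0.308 and 0.294, but with 2 shared numbers they were not taken as pairs; in the other comparisons not every pair was over 0.1.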
